A study of Homo sapiens with 4 samples.

Results

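The libraries of replicate 2 were compared with those of replicate 1 in sorted PC3 prostate cancer cells, with the sorting gate taken as a block. All 4 libraries of the series entered, 2 of each replicate number, and each replicate held 1 SORE6+ and 1 SORE6- library. Of 57963 genes listed, 17642 had at least 1 TPM in at least 2 libraries and were tested. Between replicates, the genes of mitosis were lower in replicate 2 in both gates, and so were many immediate early genes and the chemokines CXCL8, CXCL2 and CXCL1. Of 56 DNA replication genes 6 were called higher and 2 lower, beside 1.69% and 6.87% of all genes tested. Their median log2 difference was 0.10. The higher ones included 4 of 6 genes of entry into S phase, and the 2 lower ones were of nucleotide supply. Of 77 nuclear genes of the respiratory chain 0 were called.

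PC3 is a human prostate cancer line derived from a bone metastasis. The cells carried a lentiviral SORE6 reporter, in which elements bound by SOX2 and OCT4 drive a destabilized GFP, were selected with 5 µg/mL puromycin according to the labels, and were grown in DMEM with 10% FCS. The study's methods give a lower puromycin concentration. Cells with GFP were sorted as SORE6+ cells, which the labels call cancer stem cells, and cells without it as SORE6- cells. All libraries were made from total RNA of cells at passages 18 to 22 and were planned as 100 bp paired-end reads at 30 M reads per library. The gate reads the output of the reporter, not SOX2 or OCT4 themselves, and both groups carry the same reporter and selection. The methods describe separate pairs of sorted cells, but no source used here says that a replicate number marks a pair, a culture or a day. Whether the difference between replicates came from the culture, the sort or the library could therefore not be told apart.

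The values are relative transcript abundances (TPM), which are scaled for transcript length and sum to the same total in each library. TPM keeps no read counts, so the depth behind each value is unknown. In replicate 1, 31501 (SORE6-) and 30709 (SORE6+) genes were above 0, against 30535 and 29778 in replicate 2. Mitochondrial RNA held 15.6% and 16.6% of the TPM in replicate 1 and 18.5% and 19.2% in replicate 2, and its part in the other differences was not tested. The line's epithelial genes were present, with KRT8 at 892 to 1162 TPM and KRT18 at 777 to 1006 TPM. The prostate antigen KLK3, which PC3 cells are known to lack, was listed at 0 in all libraries. TMPRSS2, a gene expected to be low, was at 20.1 to 33.5 TPM.

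Differences were tested with limma on log2(TPM + 1), a scale that understates changes of genes with low TPM, and genes were called where the adjusted p was under 0.1 and the difference 1.5-fold or more. In replicate 2, 298 genes (1.69% of those tested) were called higher and 1212 (6.87%) lower, and the median log2 difference of all genes was −0.09. Relative log expression factors, which moved that median by 0.10 to 0.01, gave 480 genes higher and 875 lower, so the share of higher calls went from 19.7% to 35.4%. With 4 libraries the fit had 1 residual degree of freedom. An exact permutation test of a single gene that ignores the gate could not go below 0.333, and permuting within gates allows fewer arrangements. The p-values of the fit therefore rest on a spread shared across genes. They measure the spread between these samples only, which here is how far the replicate difference disagreed between the gates. If each replicate number marks 1 sorted pair, each side holds 1 pair and the p-values hold no spread between pairs. Without the variance trend, without the filter on low values, or without any 1 library, no gene passed in either direction, and 2323 to 6266 genes then had an unadjusted p under 0.05. Among the 12826 protein-coding genes alone, 170 (1.33%) were called higher and 845 (6.59%) lower, and without each library in turn 109 to 173 were higher and 584 to 969 lower.

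Cells that divide copy their DNA in S phase and then pass through G2 into mitosis, where a wave of transcription supplies cyclin B, the spindle and the kinetochores. Immediate early genes, such as those of the AP-1 and NR4A transcription factors, are switched on within minutes by growth factors and by stress, including that of handling cells, and their RNAs are short-lived. NF-kB and AP-1 in turn drive inflammatory cytokines and chemokines, which PC3 cells are known to secrete. Mitochondrial DNA encodes a small set of respiratory chain subunits, and the nucleus encodes all others.

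Mitosis genes were lower in replicate 2 throughout their roles. Of 80 genes listed, all were tested, 77 were called lower and 0 higher, and their median log2 difference was −1.14 (−1.03 after relative log expression scaling). In 79 of them both replicate 2 libraries lay below both replicate 1 libraries. Among all genes tested 36.8% did so, and 6.87% were called lower and 1.69% higher. Summed over the list, the level was 4954 and 5021 TPM in the SORE6- and SORE6+ libraries of replicate 1 and 2281 and 2245 TPM in those of replicate 2. In bulk RNA, fewer cells in mitosis and less of these RNAs per cell cannot be told apart.

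**Figure D1:**
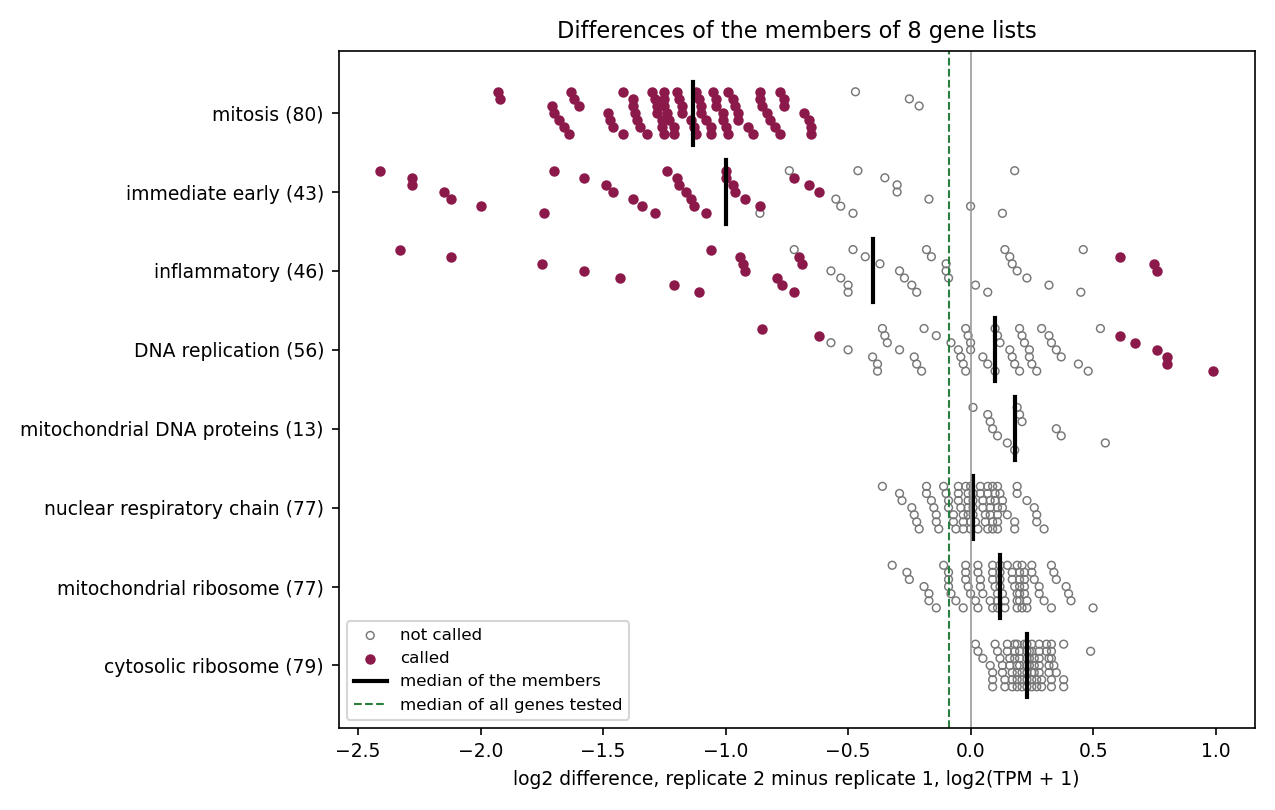
log2 difference of each tested member of 8 gene lists, replicate 2 minus replicate 1 on the log2(TPM + 1) scale, with the number of members tested in brackets. Filled points were called, open points were not, the black bars are the medians of the lists and the dashed green line is the median of all genes tested, −0.09. The mitosis list lies wholly below 0, with a median of −1.14, while the cytosolic ribosome list lies wholly above it, with a median of 0.23.

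Many mitosis genes carry CCAAT boxes, bound by NF-Y, and the cell cycle homology region TTTGAA, bound by complexes of the MuvB family, close to their start. In RefSeq promoters (GRCh38.p14, 250 bases before to 50 after the start), 67 of the 80 genes were matched. CCAAT was found on either strand in 51 of them (76.1%, against 35.7% of 27305 promoters), and TTTGAA in 46 (68.7%, against 15.4%). The 46 genes with TTTGAA had a median log2 difference of −1.19 and the 21 without it −1.01. A match is a description and does not show a bound site. TOP2A and DLGAP5 are shown as strongly lower genes with both motifs, and SPC24 as a member that was not called. The 250 bases before each start are printed, with CCAAT and TTTGAA on either strand in capitals.
TOP2A, chr17:40417897-40418146, minus strand: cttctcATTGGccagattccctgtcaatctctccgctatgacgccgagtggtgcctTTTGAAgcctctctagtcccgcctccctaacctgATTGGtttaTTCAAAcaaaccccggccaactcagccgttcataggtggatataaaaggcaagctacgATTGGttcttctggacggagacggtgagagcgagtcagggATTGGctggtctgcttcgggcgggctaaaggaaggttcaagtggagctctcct
DLGAP5, chr14:55191586-55191835, minus strand: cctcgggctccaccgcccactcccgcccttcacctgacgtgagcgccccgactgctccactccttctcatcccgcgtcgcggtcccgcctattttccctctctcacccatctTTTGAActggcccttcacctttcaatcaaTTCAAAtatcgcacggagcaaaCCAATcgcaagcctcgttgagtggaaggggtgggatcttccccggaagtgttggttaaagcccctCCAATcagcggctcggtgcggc
SPC24, chr19:11155783-11156032, minus strand: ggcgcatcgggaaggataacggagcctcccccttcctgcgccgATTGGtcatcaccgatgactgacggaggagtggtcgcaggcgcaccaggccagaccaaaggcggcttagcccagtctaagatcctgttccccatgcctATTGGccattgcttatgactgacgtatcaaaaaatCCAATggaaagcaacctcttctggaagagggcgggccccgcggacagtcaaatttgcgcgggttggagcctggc
The TOP2A stretch held 4 CCAAT and 2 TTTGAA matches, that of DLGAP5 2 and 2, and that of SPC24 3 and 0.

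The largest differences of single genes in the list were those of a kinetochore gene and a spindle gene. CENPF, a kinetochore and nuclear matrix protein of late G2 and mitosis, was at 64.2 TPM in SORE6- and 49.9 TPM in SORE6+ cells of replicate 1 and at 17.0 and 11.7 TPM in replicate 2. Its log2 difference was −1.93 ± 0.07 (SE; limma, adjusted p = 0.0262, the smallest any gene reached), and its replicates did not overlap. DLGAP5, which stabilizes spindle microtubules, went from 78.0 and 64.5 TPM to 19.4 and 16.7 TPM, a log2 difference of −1.92 ± 0.06 (limma, adjusted p = 0.0262). TOP2A, the topoisomerase that untangles sister chromatids, was at 62.8 and 58.5 TPM in replicate 1 and at 18.6 and 17.2 TPM in replicate 2. The proliferation marker MKI67 was at 42.3 and 38.9 TPM in replicate 1 and 12.6 and 11.0 TPM in replicate 2. Both genes were lower by over 3-fold as ratios of the mean TPM, 3.39-fold for TOP2A and 3.44-fold for MKI67.

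The kinases and cyclins that start mitosis fell together. CDK1, the kinase of mitotic entry, was at 174 and 184 TPM in replicate 1 and at 71.1 and 79.8 TPM in replicate 2. CCNB1, its cyclin partner, was at 165 and 145 TPM in replicate 1 against 72.6 and 57.1 TPM in replicate 2. The log2 differences were −1.24 ± 0.05 and −1.25 ± 0.06 (limma, adjusted p = 0.0262 for both), and neither gene's replicates overlapped. FOXM1, a transcription factor that activates this gene set, was at 112 and 129 TPM in replicate 1 and 55.2 and 57.5 TPM in replicate 2, a log2 difference of −1.08. All 14 cyclins, kinases and activators of the list were called lower, from BORA at −0.65 and CCNF at −0.68 to NEK2, a centrosome kinase, at −1.48.

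By role, the medians lay in a narrow range. They went from −1.07 for 12 kinetochore and centromere genes to −1.28 for 12 spindle-associated genes, with 12 kinesin motors at −1.08 and 8 cytokinesis genes at −1.20. AURKB and its partner BIRC5, of the chromosomal passenger complex that corrects attachments, had log2 differences of −1.01 and −1.21. CDC20, which activates the anaphase-promoting complex, was at 217 and 231 TPM in replicate 1 and at 130 and 117 TPM in replicate 2, a smaller difference of −0.86.

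The 3 members that were not called were SPC24, BUB3 and KIF22. SPC24, a kinetochore subunit, was at 12.2 and 16.4 TPM in replicate 1 and 10.4 and 14.1 TPM in replicate 2, so that its replicates overlapped. Its partners NUF2 and NDC80 in the same complex had log2 differences of −1.63 and −1.30. BUB3, a checkpoint protein with other nuclear roles, was at 149 and 152 TPM against 126 and 128 TPM, below 1.5-fold. For KIF22, a chromosome-arm kinesin, the values were 44.4 and 53.5 TPM in replicate 1 against 37.4 and 32.6 TPM in replicate 2 (limma, adjusted p = 0.124).

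DNA replication genes did not move with the mitosis genes. Of 56 genes, all tested, 6 were called higher and 2 lower, with a median of 0.10 (0.22 after relative log expression scaling), and their summed level was 2775 and 2760 TPM in replicate 1 and 2777 and 2809 TPM in replicate 2. The direction differed by role. All 6 genes of entry into S phase lay above in both gates, which held for 18.7% of all genes tested, and 4 of them were called higher. By contrast, all 5 genes of nucleotide supply lay below, which held for 36.8% of all genes tested, and 2 were called lower.

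**Figure D2:**
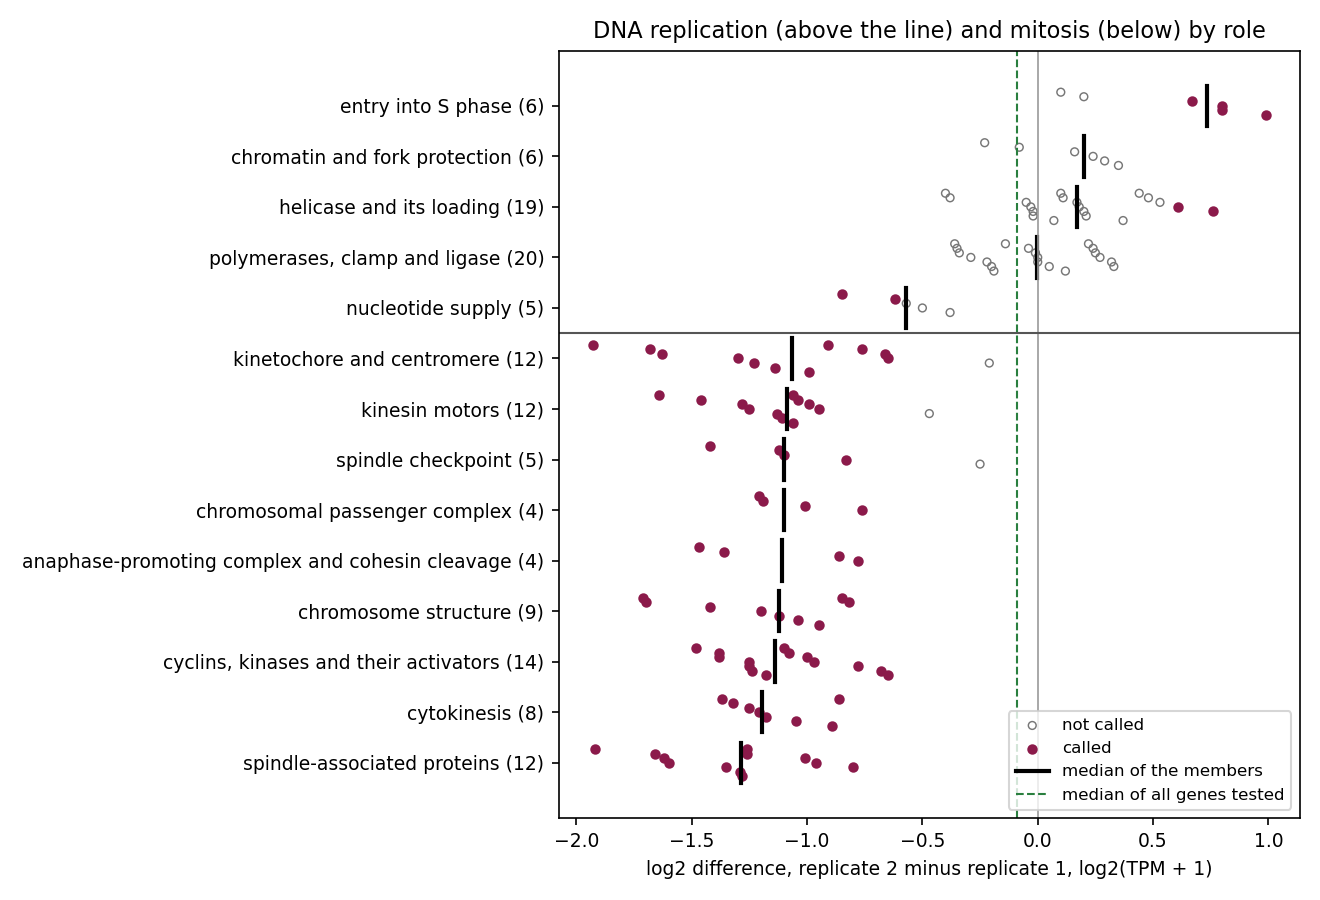
log2 difference of each tested member of the DNA replication list (above the horizontal line) and the mitosis list (below it), grouped by role, with the number of members in brackets. Filled points were called, black bars are medians and the dashed green line is the median of all genes tested, −0.09. Genes of entry into S phase have a median of 0.74 and all 9 mitosis roles have medians between −1.28 and −1.07.

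DTL, the substrate receptor of the ubiquitin ligase that removes the licensing factor CDT1 in S phase, rose most. It was at 48.5 TPM in SORE6- and 42.1 TPM in SORE6+ cells of replicate 1 and at 96.2 and 85.0 TPM in replicate 2, a log2 difference of 0.99 ± 0.05 (limma, adjusted p = 0.0262). Cyclin E, which drives cells into S phase, is encoded by CCNE1 and CCNE2. CCNE1 was at 9.94 and 10.9 TPM in replicate 1 and 16.5 and 17.9 TPM in replicate 2, and CCNE2 at 17.8 and 13.7 TPM against 27.2 and 28.8 TPM. CCNE2 shares 36% of its 31-base sequences with INTS8, so part of its reads may be split.

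The loading of the replicative helicase changed in part. ORC1, the largest subunit of the complex that marks origins, was at 17.1 and 17.9 TPM in replicate 1 and 28.9 and 31.8 TPM in replicate 2, a log2 difference of 0.76. MCM6, a helicase subunit, was at 37.1 and 35.6 TPM against 56.6 and 55.4 TPM, a difference of 0.61. The helicase subunit MCM7 differed by −0.05 and MCM2 by 0.11, and neither was called. PCNA, the sliding clamp, was at 192 and 173 TPM in replicate 1 and 216 and 218 TPM in replicate 2, which did not reach 1.5-fold.

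Among the genes of nucleotide supply, TK1, thymidine kinase, was at 151 and 180 TPM in replicate 1 and at 86.5 and 95.9 TPM in replicate 2, a log2 difference of −0.85 ± 0.05 (limma, adjusted p = 0.0286). TYMS, thymidylate synthase, was at 155 and 156 TPM against 96.6 and 105 TPM. RRM2, the small subunit of ribonucleotide reductase, had a log2 difference of −0.57, just under the fold required. The replicates of all 3 genes did not overlap. TYMS shares 35.7% of its 31-base sequences with ENOSF1.

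Replication-dependent histones were measured with limits, because their RNAs lack poly(A) tails and many genes are near-identical copies. Of 65 listed, 49 were tested, 1 was called higher and 10 lower, with a median of −0.36. The shares over all genes tested were 1.69% higher and 6.87% lower. HIST1H2AE went from 29.2 and 19.6 TPM to 12.4 and 9.28 TPM, and HIST2H4A from 33.7 and 30.2 TPM to 47.6 and 51.4 TPM. HIST2H2AA3 was listed at 0.158 TPM in the SORE6- library of replicate 1 and at 34.4 to 77.0 TPM in the other libraries, and it was not called.

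Immediate early genes were lower in replicate 2 in large part. Of 46 genes listed, 43 were tested, 30 were called lower and 0 higher, and their median log2 difference was −1.0 (−0.89 after relative log expression scaling). In 38 of the 43, both replicate 2 libraries lay below both replicate 1 libraries. Among all genes tested 36.8% did so and 6.87% were called lower. The 3 that were not tested, NR4A3, EGR3 and EGR4, were at no more than 1.24 TPM. Summed, the list was at 5953 and 5569 TPM in replicate 1 and 3159 and 2845 TPM in replicate 2.

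Several of these genes are known to be switched on by cAMP and CREB through the element TGACG, and others by serum response factor through the CArG box. Among 36 RefSeq promoters matched, 21 (58.3%) held TGACG on either strand, against 25% of all promoters of the same length, and 1 (2.78%) held the CArG box, a run of 6 A or T between CC and GG, against 1.29%. DUSP1 is shown as a strongly lower gene, and EGR1 as the CArG gene and a member that was not called. TGACG and CArG matches are in capitals, and overlapping TGACG matches on both strands run together.
DUSP1, chr5:172771196-172771445, minus strand: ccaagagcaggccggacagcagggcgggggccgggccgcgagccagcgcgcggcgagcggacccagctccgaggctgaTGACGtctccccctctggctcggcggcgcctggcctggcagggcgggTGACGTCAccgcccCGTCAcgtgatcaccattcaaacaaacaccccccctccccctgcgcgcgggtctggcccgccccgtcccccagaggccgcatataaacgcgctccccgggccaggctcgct
EGR1, chr5:138465229-138465478, plus strand: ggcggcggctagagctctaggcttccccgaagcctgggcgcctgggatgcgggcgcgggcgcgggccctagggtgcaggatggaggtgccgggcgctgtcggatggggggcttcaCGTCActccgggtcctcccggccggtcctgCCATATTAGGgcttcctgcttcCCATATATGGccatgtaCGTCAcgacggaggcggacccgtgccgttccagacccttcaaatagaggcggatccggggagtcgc
The DUSP1 stretch held 4 TGACG matches. That of EGR1 held 2 CArG boxes and 2 TGACG matches.

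The AP-1 family gave 7 of 9 genes called lower. JUN, its central subunit, was at 104 TPM in SORE6- and 83.2 TPM in SORE6+ cells of replicate 1 and at 22.6 and 18.1 TPM in replicate 2, a log2 difference of −2.15 ± 0.05 (limma, adjusted p = 0.0262). FOSB was at 112 and 95.6 TPM against 33.4 and 18.9 TPM. FOS itself was at 153 and 118 TPM against 85.3 and 39.3 TPM, a smaller difference of −1.20 ± 0.20 with no overlap. The stress-induced partner ATF3 was at 551 and 374 TPM in replicate 1 and 146 and 59.3 TPM in replicate 2, a difference of −2.28. JUNB and FOSL1 were not called: FOSL1, the most abundant of the family, stood at 650 and 712 TPM in replicate 1 and 576 and 633 TPM in replicate 2.

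**Figure D3:**
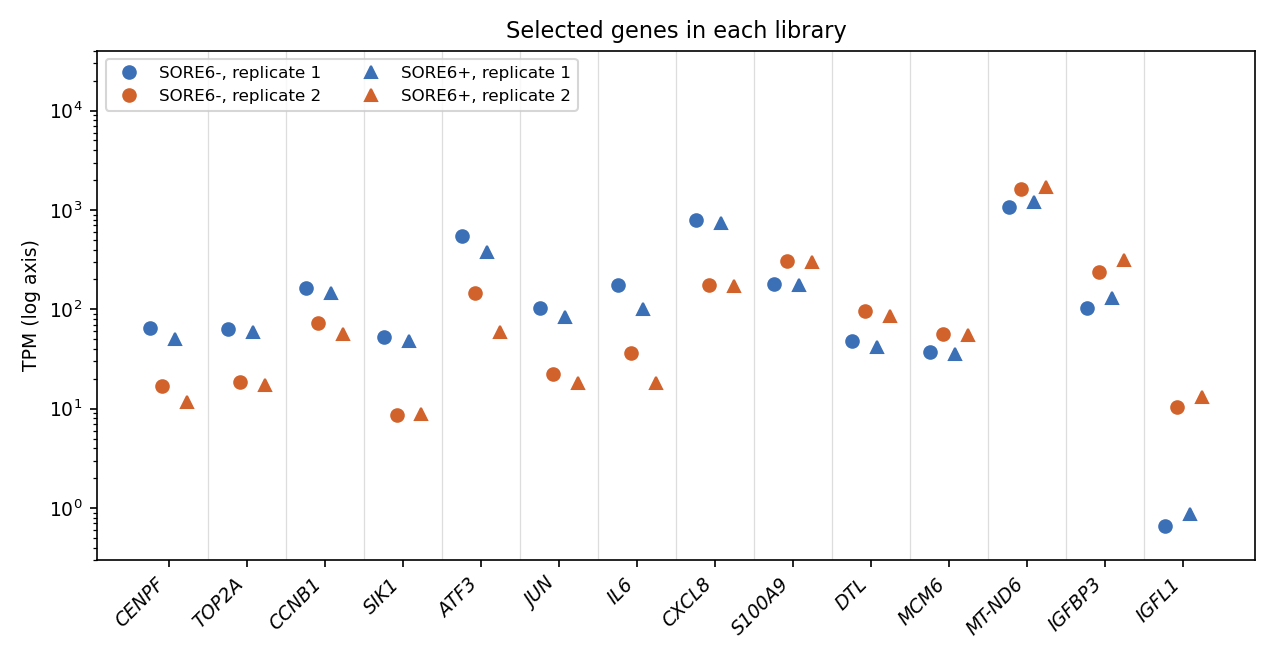
TPM of 14 genes in each library on a log axis, with circles for SORE6- and triangles for SORE6+ cells, blue for replicate 1 and orange for replicate 2. No error bars are drawn because each point is 1 library. In every gene shown the replicate 2 points lie on one side of the replicate 1 points, below in CENPF to CXCL8 and above in S100A9 to IGFL1.

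SIK1, a salt-inducible kinase and CREB target, had the largest difference of the list. It was at 53.2 and 48.5 TPM in replicate 1 and 8.57 and 8.90 TPM in replicate 2, a log2 difference of −2.41 ± 0.08 (limma, adjusted p = 0.0262). SIK1B, a near-identical copy with which SIK1 shares 87.3% of its 31-base sequences, was lower by 2.03 on the log2 scale, and reads could be split between them. The nuclear receptors NR4A1 and NR4A2, both rapid stress and cAMP responders, had log2 differences of −2.12 and −2.28. NR4A1 was at 176 and 156 TPM in replicate 1 and 42.6 and 32.6 TPM in replicate 2.

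Genes that damp these signals were lower as well. DUSP1, a phosphatase that switches off MAP kinases, was at 189 and 208 TPM in replicate 1 and at 55.3 and 61.9 TPM in replicate 2, a log2 difference of −1.74 ± 0.04 (limma, adjusted p = 0.0262). Of 7 ERK phosphatases and Sprouty inhibitors, 5 were called lower. ZFP36, which speeds the decay of AU-rich mRNAs, was at 96.4 and 95.5 TPM against 38.3 and 34.3 TPM. Its replicates did not overlap.

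Differences were not uniform within the list. EGR1 was at 36.0 TPM in SORE6- and 22.3 TPM in SORE6+ cells of replicate 1 and at 27.7 and 9.72 TPM in replicate 2, so that its replicates overlapped (limma, adjusted p = 0.126). IER2 was at 175 and 172 TPM against 132 and 116 TPM, which did not reach 1.5-fold. ARC, a neuronal activity gene, was at 21.5 TPM in SORE6- and 2.47 TPM in SORE6+ cells of replicate 1 and at 3.72 and 0.581 TPM in replicate 2, and it was called lower although the replicates overlapped across gates.

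MYC and KLF4, which belong to this list and are also pluripotency factors, were lower in replicate 2. MYC was at 427 and 365 TPM in replicate 1 and at 194 and 143 TPM in replicate 2, a log2 difference of −1.24 ± 0.07 (limma, adjusted p = 0.0278), and KLF4 at 40 and 32.5 TPM against 17.9 and 13.0 TPM. Of the factors that bind the reporter, SOX2 was at no more than 0.0803 TPM. POU5F1, which encodes OCT4 and of whose 31-base sequences 50.7% occur elsewhere, was at 2.82 and 3.09 TPM in replicate 1 and 2.14 and 2.61 TPM in replicate 2 and was not called.

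Inflammatory genes were called in both directions. Of 61 genes listed, 46 were tested, 16 were called lower and 3 higher, and their median log2 difference was −0.40 (−0.29 after relative log expression scaling). In 24 of the 46 both replicate 2 libraries lay below both of replicate 1, and in 7 above. Beside these, 36.8% and 18.7% of all genes tested lay so, and 6.87% were called lower and 1.69% higher. The 15 genes that were not tested, TNF, IL1A, CCL2 and CCL5 among them, were at no more than 0.963 TPM. Of 45 promoters matched, 18 (40%) held the NF-kB site, against 10.8% of all promoters of the same length.

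IL6 and CXCL1 are shown with the NF-kB site in capitals, because both are textbook NF-kB targets and both were lower. The site was searched on both strands, and overlapping matches run together.
IL6, chr7:22726950-22727199, plus strand: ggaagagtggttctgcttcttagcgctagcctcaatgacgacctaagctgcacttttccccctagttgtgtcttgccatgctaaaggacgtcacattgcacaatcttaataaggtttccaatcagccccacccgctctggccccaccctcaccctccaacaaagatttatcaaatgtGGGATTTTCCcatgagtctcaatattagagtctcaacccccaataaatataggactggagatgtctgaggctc
CXCL1, chr4:73869143-73869392, plus strand: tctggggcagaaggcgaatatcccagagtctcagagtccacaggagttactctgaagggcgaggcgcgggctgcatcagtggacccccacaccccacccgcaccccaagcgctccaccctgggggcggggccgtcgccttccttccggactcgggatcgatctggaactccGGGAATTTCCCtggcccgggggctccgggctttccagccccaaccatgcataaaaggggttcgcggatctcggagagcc
The IL6 stretch held 1 match and that of CXCL1 held 2, which overlap.

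Secreted factors led the list. IL6, a cytokine of the acute phase response, was at 174 TPM in SORE6- and 101 TPM in SORE6+ cells of replicate 1 and at 36.1 and 18.1 TPM in replicate 2, a log2 difference of −2.33 ± 0.07 (limma, adjusted p = 0.0262). CXCL8, the neutrophil chemokine interleukin 8, was at 790 and 731 TPM in replicate 1 and 176 and 172 TPM in replicate 2, and its log2 difference was −2.12. Of 8 chemokines tested, 5 were called lower: CXCL8, CXCL2, CXCL1, CXCL6 and CXCL3. CXCL1 went from 398 and 374 TPM to 127 and 129 TPM. CXCL16 and CXCL5, by contrast, lay above in replicate 2 in both gates and were not called, CXCL16 at 47.1 and 52.4 TPM against 67.3 and 69.3 TPM.

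The feedback inhibitors of NF-kB differed among themselves. TNFAIP3, a ubiquitin-editing enzyme that ends NF-kB signalling, was at 41.9 and 30.6 TPM in replicate 1 and 15.0 and 14.8 TPM in replicate 2, a log2 difference of −1.21. NFKBIA, the inhibitor IkB-alpha, was at 116 and 111 TPM against 76.5 and 83.6 TPM, below in both gates but under 1.5-fold. NFKBIE was called higher, at 7.16 and 6.99 TPM in replicate 1 and 12.8 and 10.0 TPM in replicate 2. The subunit genes NFKB1, NFKB2, REL and RELB were not called.

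PTGS2, the inducible cyclooxygenase, was at 38.6 and 30.0 TPM in replicate 1 and 19.4 and 15.4 TPM in replicate 2, a log2 difference of −0.94. PLAU, the urokinase protease, was at 1440 and 1515 TPM against 861 and 967 TPM, and its call was lost with relative log expression factors. Other inflammatory genes did not share this direction. S100A9, a calcium-binding alarmin, was at 179 and 175 TPM in replicate 1 and 303 and 299 TPM in replicate 2, a log2 difference of 0.76 ± 0.04 (limma, adjusted p = 0.0262). IL32 was also called higher, at 19.6 and 12.3 TPM against 31.9 and 22.4 TPM. SOD2, the mitochondrial superoxide dismutase and an NF-kB target, stood at 60.8 to 65.8 TPM in all libraries.

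Defining markers of immune cells were at or near 0. PTPRC, the pan-leukocyte gene CD45, was at no more than 0.746 TPM, CD3E at 0.0435 TPM or less and CD14 at 0.287 TPM or less. Of 10 immune markers only CD68, which other cells also express, was tested, at 27.5 to 53.8 TPM. The untested immune markers were at no more than 1.2 TPM. Of 9 fibroblast markers, whose summed level was 41.5 and 32.2 TPM in replicate 1 and 15.6 and 15.8 TPM in replicate 2, COL1A1 and LUM were tested and COL1A1 was called lower. THY1 and FAP, which define fibroblasts, were at 0.0789 TPM or less.

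In limma 5866 of all 17642 genes tested had an unadjusted p under 0.05. Of the 13 protein-coding genes of mitochondrial DNA 0 were called in limma, and 7 had an unadjusted p under 0.05, all above. Their median log2 difference was 0.18 (0.30 after relative log expression scaling), and in 10 of the 13 both replicate 2 libraries lay above both of replicate 1. The 7 complex I subunits all did so, against 18.7% of all genes tested. MT-ND6, the only one encoded on the light strand, was at 1069 and 1199 TPM in replicate 1 and 1635 and 1691 TPM in replicate 2. Its log2 difference of 0.55 ± 0.05 (limma, adjusted p = 0.0368) was just under 1.5-fold, and it was called with relative log expression factors. MT-CO1, of cytochrome c oxidase, was at 23550 and 23123 TPM against 26588 and 26268 TPM. MT-CYB, of complex III, differed by 0.01.

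Nuclear genes of the same complexes lay on both sides of 0. Of 77 tested in limma 0 were called, with 21 at an unadjusted p under 0.05, a median of 0.01 (0.13 after relative log expression scaling) and a range of −0.36 to 0.30. SDHA, the flavoprotein of succinate dehydrogenase, had the lowest difference, at 106 and 139 TPM in replicate 1 and 85.2 and 104 TPM in replicate 2. Of 18 genes of the TCA cycle 0 were called and 6 had an unadjusted p under 0.05, with a median of −0.09, which became 0.03 with relative log expression factors. Of 77 genes of the mitochondrial ribosome 0 were called and 34 had an unadjusted p under 0.05, with a median of 0.12, and 42 lay above without overlap. The cytosolic ribosome gave 73 of 79 genes above, with a median of 0.23 and a range of 0.02 to 0.49. Among all genes tested 18.7% lay above without overlap. Of the 79 genes of the cytosolic ribosome 62 had an unadjusted p under 0.05 and 0 reached 1.5-fold. These unadjusted counts stand beside 5866 of all 17642 genes tested in limma.

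The replicate difference had the same sign in both gates for 75.1% of all 17642 genes tested, with a Pearson correlation across genes of 0.34. Over the 12826 protein-coding genes the correlation was 0.72. Across the 8667 protein-coding genes with a mean of at least 10 TPM, the difference within SORE6- and that within SORE6+ cells had a Pearson correlation of 0.83, and 82% of genes had the same sign. These are values over genes, which are not independent replicates, and the within-gate differences share no library. Among the lists the correlation was 0.86 for mitosis, 0.87 for immediate early, 0.96 for inflammatory and 0.89 for DNA replication genes. The SD over those 8667 genes was 0.33 for the replicate difference and 0.19 for the gate difference, and over all genes tested it was 0.47 and 0.36. In a principal component analysis the leading axis (49.8% of variance) separated the replicates and the next (27.8%) the gates. With 1 library per gate and replicate, a difference between gates in these values could not be tested.

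**Figure D4:**
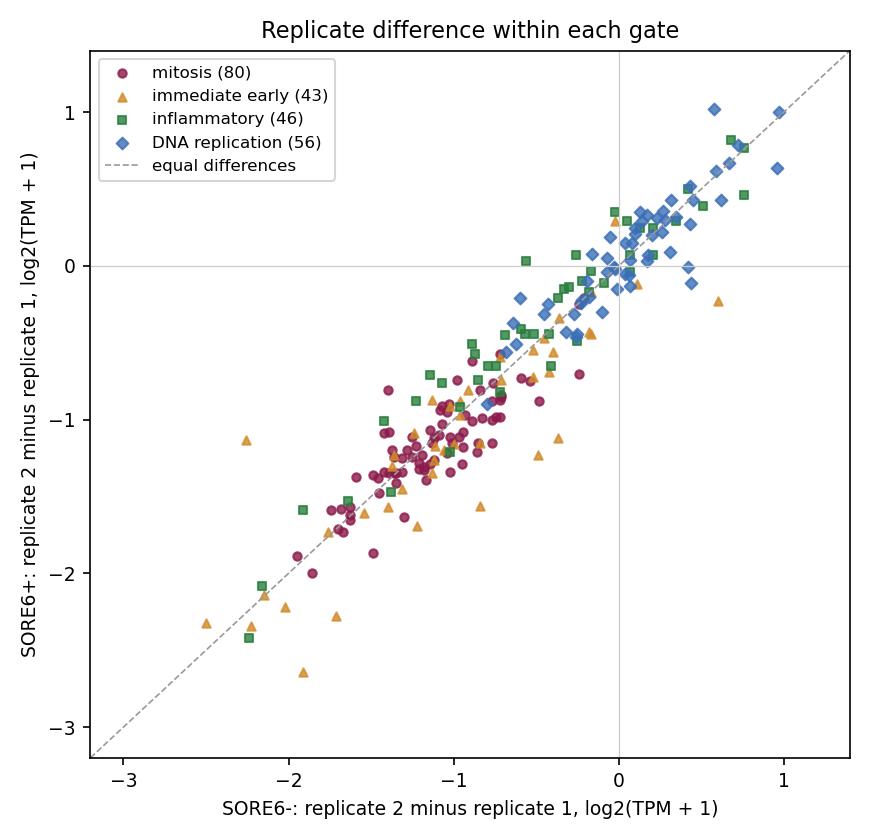
Replicate 2 minus replicate 1 within SORE6- cells (horizontal axis) and within SORE6+ cells (vertical axis), both on the log2(TPM + 1) scale, for the tested members of 4 lists, 1 point per gene. The dashed line marks equal differences. All 80 mitosis genes lie below 0 on both axes, and DNA replication genes extend to the upper right.

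Signalling lists beyond these moved in part, beside 6.87% of all genes tested called lower and 1.69% higher. Of 20 YAP target genes tested 9 were called lower and 0 higher, with a median of −0.48, among them CTGF, a matricellular protein, at 126 and 114 TPM in replicate 1 and 38.5 and 25.9 TPM in replicate 2. Of 28 hypoxia targets 4 were lower, with a median of −0.30, and STC2, a secreted hormone that is also an ATF4 target, went from 316 and 286 TPM to 130 and 124 TPM. Of 20 glycolysis genes 0 were called, with a median of −0.07 that became 0.05 with relative log expression factors. In limma 6 of the 20 had an unadjusted p under 0.05, beside 5866 of all 17642 genes tested. TGF-beta targets were called in both directions, with 5 lower and 2 higher of 26. SNAI2, a repressor of epithelial genes, went from 31.5 and 22.3 TPM to 7.41 and 7.64 TPM, whereas IGFBP3, which binds insulin-like growth factors, went from 102 and 130 TPM to 237 and 311 TPM, a log2 difference of 1.23 ± 0.04 (limma, adjusted p = 0.0262).

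In metabolic and stress lists most calls were lower, as over all genes tested, where 6.87% were called lower and 1.69% higher. Sterol and fatty acid synthesis had 6 of 33 genes lower, among them INSIG1, a sterol sensor, at 57.1 and 50.5 TPM in replicate 1 and 18.0 and 23.9 TPM in replicate 2. The ATF4 and unfolded protein response list had 6 of 34 lower, with a median of −0.11 against −0.09 over all genes tested. Both medians became 0.01 with relative log expression factors. ATF4 itself was at 291 and 264 TPM against 188 and 180 TPM. Metallothioneins and their regulon had 3 of 4 tested lower, with MT2A, which binds zinc and copper, at 246 and 329 TPM against 118 and 140 TPM. FOXO targets had 5 lower and 1 higher of 16. TXNIP, an inhibitor of thioredoxin and glucose uptake, was the one called higher, at 38.2 TPM in both replicate 1 libraries and 64.7 and 58.7 TPM in replicate 2.

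The remaining lists are given by their counts, beside 1.69% of all genes called higher and 6.87% lower. Interferon-stimulated genes gave 3 higher and 4 lower of 43, class I antigen presentation 1 lower of 15, heat shock 2 lower of 22, NRF2 targets 1 lower of 24, and Wnt feedback and targets 1 higher of 11. IRF1, a transcription factor of the interferon response, went from 25.9 and 23.7 TPM to 14.1 and 9.82 TPM, while OAS1, an antiviral enzyme, went from 25.1 and 31.6 TPM to 43.8 and 46.8 TPM. Splicing and RNA-binding proteins gave 4 lower of 32, keratins and epithelial junctions 3 lower of 23, and the mesenchymal switch 3 lower and 1 higher of 13. VIM, the mesenchymal filament vimentin, was at 155 TPM in SORE6- and 237 TPM in SORE6+ cells of replicate 1 and at 74.0 and 142 TPM in replicate 2. For VIM the 2 gates therefore differed as well, and its call was lost without the gate block.

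Among single protein-coding genes, chosen after the values were seen, IGFL1, a secreted factor of the insulin-like growth factor family, had the largest rise among those called. It was at 0.655 and 0.871 TPM in replicate 1 and 10.4 and 13.2 TPM in replicate 2, a log2 difference of 2.86 ± 0.14 (limma, adjusted p = 0.0262). MSMP, a small secreted prostate protein, was at 159 and 227 TPM against 398 and 697 TPM, and 88.6% of its 31-base sequences occur in RGP1 as well. The call of MSMP was lost without the gate block. Many of the largest differences over all genes were in short noncoding RNAs. Of 1057 small RNA and rRNA genes tested, 26.4% were called against 6.8% of protein-coding genes, and 43 of their higher and 85 of their lower calls had the other replicate listed at 0. MIR205 was listed at 0 in both replicate 1 libraries and at 17.8 and 13.8 TPM in replicate 2, while its host RNA MIR205HG, which overlaps it, was at 24.3 and 20.6 TPM against 48.6 and 49.9 TPM.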

How the data were processed

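Reads were assessed by the authors in FastQC and MultiQC and trimmed in Trim Galore. Salmon gave transcript abundances, which tximport collapsed to genes. The authors' test was DESeq2. The submitters' processing notes name GRCh38. Versions of these tools and the annotation release: not given in the sources used here. The files deposited hold TPM, with a file for each library. Depth is unknown from TPM, and the number of libraries limits the precision.

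Gene IDs were matched to GENCODE v29 without their version for 57844 of 57963 genes, 56517 of them with it, and 119 did not match. Values were transformed to log2(TPM + 1) from the deposited TPM, and a gene was kept where 2 or more libraries had 1 TPM or more. limma 3.58.1 in R 4.3.3 fitted gate and replicate number with eBayes and a variance trend. Benjamini-Hochberg adjustment ran over all 17642 genes. Lists were described by counts and medians, with no set test. The members and lists were chosen with earlier results of these data known.

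Genes named are the 20 of largest difference in each direction with a mean of at least 2 TPM and no overlap, up to 12 called and the 4 most abundant of the main lists, up to 4 called or the 2 most abundant of the others, and the reporter and identity genes. Protein-coding genes and the groups of the closing section were added after values were seen, and the text also names members outside the rule, picked by role after their values were seen. Alternatives were other pseudocounts, filters, scaling factors and variance models, no gate block, protein-coding genes only, removal of GC and length trends by loess, and each library left out. Transcripts of 495 genes were searched for 31-base sequences that other genes share. Tables and plots were made with pandas 2.3.3, numpy 2.4.6 and matplotlib 3.10.9 in Python 3.11.15 and with data.table (version 1.17.8) in R. Sequences are from RefSeq, and the NF-kB site and the CArG box were searched by their consensus.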

Additional observations from a re-analysis of the deposited data

Results flagged for a closer look

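In 4 items flagged here the replicate difference had opposite signs in the gates. The sign was the same in both gates for 75.1% of all genes tested, so opposite signs were not particular to these items. HEY1, for example, differed by −0.07 in SORE6- and 0.31 in SORE6+ cells. With 1 library per gate and replicate, the difference between gates was not tested. The summed TPM of the replication-dependent histones had a log2 ratio of replicate 2 to replicate 1 of −0.19 in SORE6- and 0.16 in SORE6+ cells. For the Wnt feedback and target genes the log2 ratio of the summed TPM was 0.08 in SORE6- and −0.07 in SORE6+ cells. CD68, a lysosomal membrane protein used as a macrophage marker, differed by −0.15 in SORE6- and 0.16 in SORE6+ cells on the log2(TPM + 1) scale, and 81.2% of its 31-base sequences also occur in transcripts of other genes. PECAM1, an endothelial adhesion protein, differed by 0.21 in SORE6- and −0.18 in SORE6+ cells.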

How the results depend on the processing

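No paired analysis was possible because the replicate number is itself what was compared, and the gate took the place of a block. The direction of the mitosis, immediate early and inflammatory medians was kept under all alternatives. The genes called higher and lower numbered 127 and 682 with a pseudocount of 5 and 168 and 753 without the gate block. The higher calls numbered 480 with relative log expression factors, 491 with upper-quartile factors, 490 with GC and length trends removed and 170 among protein-coding genes, and with a pseudocount of 5 the DNA replication list had 3 higher. Without a filter, without the variance trend, and without each library in turn (with the gate block dropped, which the remaining libraries could not carry), 0 genes and 0 members of the mitosis, immediate early, inflammatory and DNA replication lists were called. With limma these fits had 6266, 5054 and 2323 to 2832 genes at an unadjusted p under 0.05. In them the lone library of a replicate is assumed to vary like the others.

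Alternatives for protein-coding genes were added after the data were seen. The higher calls were 165 without the variance trend and 162 without a filter, and the lower calls 577 with relative log expression factors. When the SORE6- library of replicate 1 was left out 129 genes were higher and 584 lower, and 160 and 953 when that of replicate 2 was. Leaving out the SORE6+ library gave 173 and 969 for replicate 1 and 109 and 602 for replicate 2. The mitosis list then had 74 to 77 lower, the immediate early list 28 to 34, the inflammatory list 14 to 17, and the DNA replication list 4 to 6 higher. Of 218 named genes tested, 205 kept their side of the threshold with relative log expression factors and 192 with a pseudocount of 5, and no direction of a called gene was reversed. The cause of these changes was not tested beyond the fewer genes or libraries in each fit.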

Other observations

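5 further groups were chosen after the values had been seen and are described without a test of the group. Over all genes tested 1.69% were called higher and 6.87% lower, and 18.7% lay above and 36.8% below without overlap. All 8 tested genes named as inhibitors of cyclin-dependent kinases lay below in replicate 2 in both gates, and 5 were called lower. CDKN3, counted here by its name, encodes a phosphatase that acts on cyclin-dependent kinases. It had the largest difference of the group, at 445 and 383 TPM in replicate 1 and 149 and 127 TPM in replicate 2. CDKN1A, the p21 inhibitor, was at 92.0 and 81.4 TPM in replicate 1 against 48.7 and 47.4 TPM in replicate 2. CDKN1B, the p27 inhibitor, was at 20.7 and 18.1 TPM against 10.4 and 11.4 TPM. Of 5 Notch target genes tested 4 were called lower. HES1, a repressor induced by Notch, was at 592 and 540 TPM in replicate 1 and 184 and 170 TPM in replicate 2, a log2 difference of −1.67 ± 0.04 (limma, adjusted p = 0.0262). The Notch ligand JAG1 went from 69.9 and 60.0 TPM to 29.8 and 25.9 TPM.

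Of 14 clock genes tested 6 were called lower and 0 higher. PER1, a repressor of the clock, was at 31.5 and 21.9 TPM in replicate 1 and 8.62 and 7.71 TPM in replicate 2. NR1D2, the nuclear receptor REV-ERB beta, was at 40.8 and 24.3 TPM against 8.12 and 6.59 TPM. ARNTL, the activator BMAL1, was not called, at 7.55 and 8.53 TPM against 12.3 and 9.44 TPM. Of 18 squamous genes listed 10 were tested, 6 were called higher and 0 lower. KRT16, a keratin of stressed epithelium, lay below in both gates, at 19.5 and 17.6 TPM in replicate 1 and 14.8 and 12.3 TPM in replicate 2, and was not called. TP63, which encodes the squamous and basal factor p63, was at no more than 0.693 TPM and was not tested. KRT6B, another keratin of stressed epithelium, was at 2.15 and 2.17 TPM in replicate 1 and 6.03 and 6.90 TPM in replicate 2, and SERPINB3, a protease inhibitor, went from 3.18 and 2.30 TPM to 12.2 and 13.0 TPM. KRT16 shares 31.8%, KRT6B 58.3% and SERPINB3 63.6% of its 31-base sequences with other genes. Of 23 mitochondrial tRNA and rRNA genes tested 7 were called higher and 1 lower, with MT-TY, the tyrosine tRNA, at 1268 and 1205 TPM against 3028 and 3098 TPM. MT-TY spans bases 5826 to 5891 of mitochondrial DNA, less than the planned read of 100 bp. Its TPM need therefore not be a level of the tRNA itself.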
